A study of Mus musculus with 3 samples.

Results

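Cx3cr1, the EGFP reporter and 5 genes that flank Cx3cr1 on mouse chromosome 9 (Csrnp1, Wdr48, Gorasp1, Slc25a38 and Rpsa) were followed through 3 tables of single-cell expression, 1 of brain and 2 of blood. These 7 genes were chosen by name and by their place in the genome, not by a measured value, and all 7 of them were listed in each table, out of 18214 different genes in all. The question put to the data was whether the neighbours shift between Het and Hom blood monocytes as Cx3cr1 does.

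Cx3cr1 encodes the receptor of fractalkine (Cx3cl1), a chemokine that is made as a membrane-bound protein and can be shed. The receptor signals through inhibitory G proteins, and in mice it is known as a marker of microglia, of patrolling Ly6c-low monocytes and, at a lower level, of Ly6c-high monocytes and natural killer (NK) cells. EGFP is a green fluorescent protein of jellyfish origin, and in a widely used mouse line it replaces part of the Cx3cr1 coding sequence. Mice of that line with 1 changed copy still make the receptor, and mice with both copies changed do not.

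The study pooled 8 samples, each marked with its own barcoded antibody (hashtag), and measured RNA and 35 antibody tags cell by cell with the 10x 3′ assay. All mice were females of 2 to 3 months on a C57Bl/6 background. The brain samples were 2 of CCR2+/- and 2 of CCR2-/- mice without tumours, each from 1 hemisphere after perfusion and enrichment of immune cells on percoll. The blood samples, with red cells lysed, were a Het and a Hom sample of naive mice and a Het and a Hom sample of metastasis-bearing mice. The latter pair was taken about 2 weeks after carotid injection of E0771, a mouse breast cancer line. The study lists Cx3cr1+/-, Cx3cr1-/-, CCR2+/- and CCR2-/- mice, but the sample names do not say which gene Het and Hom refer to, nor what the changed alleles look like. The labels do not state whether both samples of a brain genotype came from different mice, so p-values there measure the spread between these samples, which may be technical.

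A level below is the number of depth-corrected counts of a gene per 10000 corrected counts of the same cells. Cells were kept when their barcode stood in 1 table only and the hashtags belonging to that table made up at least 0.5 of their hashtag counts, which left 11063 of 16328 deposited cells. The tables shared 970 barcodes between brain and metastasis-bearing blood, 926 between brain and naive blood and 845 between the blood tables. Median depth ran from 6189 to 7393 raw transcripts (UMIs) per cell in the brain samples and from 3928 to 4709 in blood. Intervals in parentheses are exact 95% intervals that cover counting error only. They are also too narrow in shallow cells, where correction to a common depth raises counts above the reads. The 3 tables were normalized separately, so levels are compared within a table.

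The positions of the genes were taken from RefSeq on the build GRCm38.p6. Wdr48 (chr9:119894895-119926586, plus strand) and Gorasp1 (chr9:119925673-119937558, minus strand) have the lowest coordinates and overlap by 914 bases at their ends, on opposite strands. Csrnp1 (chr9:119971163-119984742, minus strand) follows, then Cx3cr1 (chr9:120048683-120068296, minus strand), Slc25a38 (chr9:120110377-120126093, plus strand) and Rpsa (chr9:120127766-120132369, plus strand). Measured from the start site of Cx3cr1 to the middle of each gene, Wdr48 lies at -157.6 kb, Gorasp1 at -136.7 kb, Csrnp1 at -90.3 kb, Slc25a38 at 49.9 kb and Rpsa at 61.8 kb. The strand used in counting was not given in the sources used here, so reads of the overlapping ends of Wdr48 and Gorasp1 cannot be told apart. Of the other genes in the interval, Xirp1 lies between Csrnp1 and Cx3cr1 and Ccr8 between Cx3cr1 and Slc25a38.

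The promoter windows printed here show what stands before the start of Cx3cr1, Slc25a38 and Rpsa and before 1 start of Csrnp1, the one with a marked match. Each window holds 250 bases before and 50 bases after the start site, written 5′ to 3′ on the gene's strand, from RefSeq on GRCm38.p6. They were Cx3cr1 (chr9:120068247-120068546, minus strand), the fourth of 4 listed windows of Csrnp1 (chr9:119982974-119983273, minus strand), Slc25a38 (chr9:120110132-120110431, plus strand) and Rpsa (chr9:120127516-120127815, plus strand).
Cx3cr1: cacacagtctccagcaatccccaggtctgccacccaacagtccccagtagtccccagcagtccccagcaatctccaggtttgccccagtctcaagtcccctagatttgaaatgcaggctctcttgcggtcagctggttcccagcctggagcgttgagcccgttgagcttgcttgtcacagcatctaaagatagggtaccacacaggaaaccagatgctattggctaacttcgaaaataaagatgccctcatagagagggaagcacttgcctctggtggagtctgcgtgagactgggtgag
Csrnp1: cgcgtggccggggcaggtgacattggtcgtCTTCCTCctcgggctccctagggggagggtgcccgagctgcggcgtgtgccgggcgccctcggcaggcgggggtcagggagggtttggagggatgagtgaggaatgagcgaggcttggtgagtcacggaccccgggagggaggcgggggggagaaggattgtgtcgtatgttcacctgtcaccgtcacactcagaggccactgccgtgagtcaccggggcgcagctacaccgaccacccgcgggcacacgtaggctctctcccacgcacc
Slc25a38: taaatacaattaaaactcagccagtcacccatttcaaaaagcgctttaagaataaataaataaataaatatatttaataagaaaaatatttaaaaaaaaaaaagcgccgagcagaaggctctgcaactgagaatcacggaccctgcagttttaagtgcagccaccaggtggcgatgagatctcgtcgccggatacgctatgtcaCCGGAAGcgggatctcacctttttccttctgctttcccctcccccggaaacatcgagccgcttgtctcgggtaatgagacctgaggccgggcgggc
Rpsa: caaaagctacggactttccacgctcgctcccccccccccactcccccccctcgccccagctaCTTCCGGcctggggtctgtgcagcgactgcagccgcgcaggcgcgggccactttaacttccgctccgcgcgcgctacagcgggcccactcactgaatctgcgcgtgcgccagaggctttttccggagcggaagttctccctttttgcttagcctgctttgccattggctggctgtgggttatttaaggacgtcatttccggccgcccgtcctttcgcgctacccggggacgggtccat
Capitals mark CCGGAAG or GAGGAAG on either strand, letters bound by transcription factors of the ETS family, of which PU.1 of myeloid cells is known for the latter. Both were chosen after the windows had been read. They can share 1 letter where one follows the other, and no printed match does. CCGGAAG was found in 4 of the 6 member genes that have a window, at 46 bases before the start in Slc25a38 and, on the opposite strand, 188 bases before it in Rpsa. In the windows that are not printed it stood 17 bases before the start of Wdr48 and 86 bases before that of Gorasp1. GAGGAAG was found on the opposite strand 220 bases before the fourth start of Csrnp1. Neither was found in the other Csrnp1 windows or in the Cx3cr1 window. Over all 27025 genes with a window, CCGGAAG occurred in 9.93% and GAGGAAG in 15.4%, and over all 32851 windows in 8.86% and 13.6%. The share of G and C letters had a median of 52.7% over all windows. It was 63.7% in the window of Wdr48, 66.3% in Gorasp1, 45.3% in Slc25a38 and 64.7% in Rpsa. A match is a description of the letters, not a bound site.

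In the brain, Cx3cr1 was highest in the microglia-like cluster, where every kept cell carried a count. This authors' cluster 1 held 1232 kept cells with a median of 10044 UMIs and raised all 9 of 9 microglia markers (P2ry12, Tmem119 and others) above the other clusters. The Cx3cr1 level there was 34.4 and 38.3 in the CCR2+/- samples and 35.7 and 37.5 in the CCR2-/- samples, 36.5 ± 1.76 (SD, n = 4), with a median of 25, 29, 27 and 28 corrected counts per cell. The genotypes overlapped.

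Next in order among clusters with at least 20 cells in every sample was cluster 0, at levels of 11.5, 12.3, 10.4 and 13. That cluster of 1236 cells was led by mitochondrial genes, had a median of 1563 UMIs and was given no cell type name. Cluster 3, whose 191 cells were led by MHC class II genes with Apoe and Pf4 and which also stayed unnamed, had 8.2 and 7.57 in the CCR2+/- samples against 5.56 and 7.09 in the CCR2-/- samples. The share of its cells with a Cx3cr1 count was 74.2%, 74.5%, 53.1% and 69.6% in the same order. All 4 samples of cluster 0 lay above all 4 of cluster 3.

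Cluster 4, led by lymphocyte and haemoglobin genes together (Ccl5, Gzma, Nkg7, Hbb-bs) and unnamed, had Cx3cr1 levels of 1.1, 1.52, 0.917 and 2.02. The endothelial-like cluster 6 had 1.11, 0.19, 1.22 and 1.13. These 2 clusters overlapped with each other and lay below cluster 3 in every sample. In the 47 cells of the pericyte or smooth muscle-like cluster 7, Cx3cr1 was at 0 in all 4 samples.

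**Figure D1:**
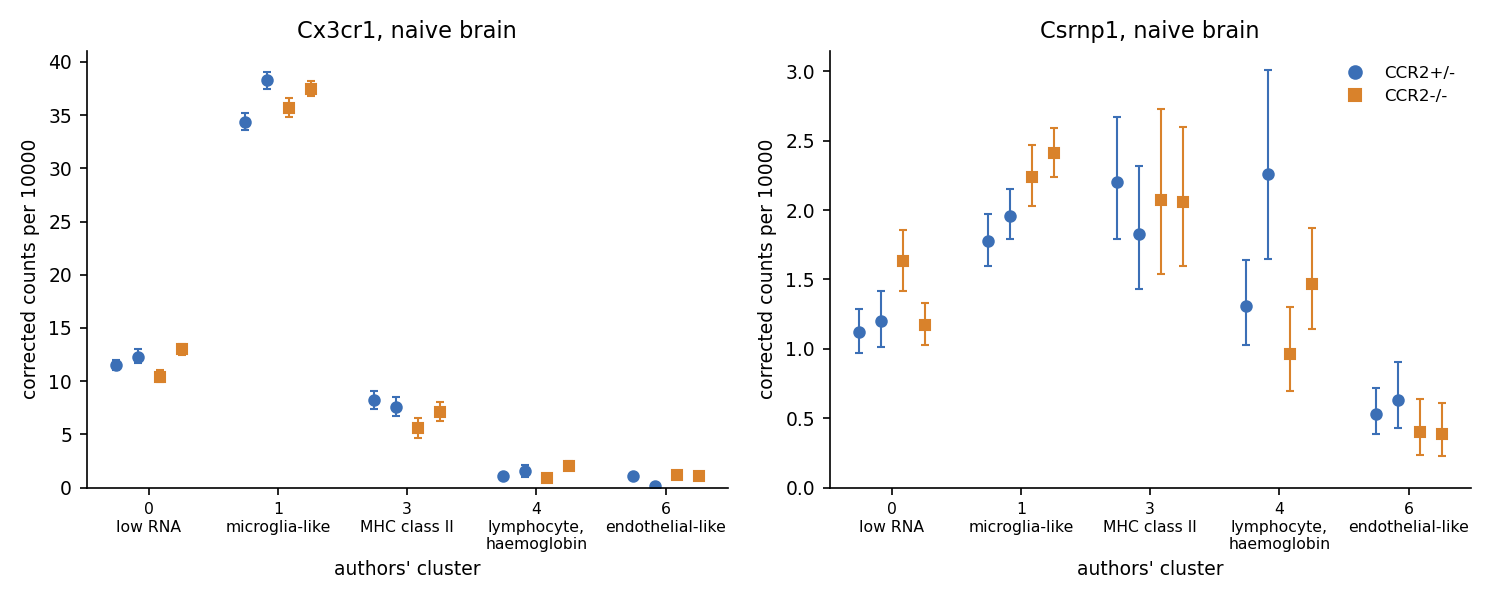
Levels of Cx3cr1 (left) and Csrnp1 (right) in corrected counts per 10000, by authors' cluster of naive brain, 1 point per hashed sample, with exact 95% Poisson intervals that cover counting error only. Cx3cr1 stands at 34.4 to 38.3 in the microglia-like cluster in both genotypes, and the CCR2-/- points of Csrnp1 lie above the CCR2+/- points there.

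CCR2 genotype was tested cluster by cluster over all genes with limma, on log2(level + 1) of the 2 samples per genotype, and no member was called at an adjusted p of 0.05 in any of the 5 clusters. Of all genes tested, limma called 0.457% in the microglia-like cluster, 0.121% in cluster 0, 0.229% in cluster 3, 0.0141% in cluster 4 and 0.158% in the endothelial-like cluster. The members tested there numbered 6, 6, 4, 4 and 5 in the same order, the others having too few counts, and 0 were called in each. At an unadjusted p under 0.05 the only member below the line was Csrnp1 in the microglia-like cluster. Over all genes, limma's unadjusted p was under 0.05 for 944 of 10713, 593 of 9889, 576 of 6974, 297 of 7115 and 758 of 9485.

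The log2 difference of Cx3cr1 between CCR2-/- and CCR2+/- was 0.01 in the microglia-like cluster (limma SE 0.109, 95% interval -0.22 to 0.23, adjusted p = 0.996). It was -0.03 in cluster 0 and -0.29 in cluster 3 (limma adjusted p = 0.98 and 0.694). In cluster 3 the CCR2-/- samples were both below the CCR2+/- samples. Ccr2 itself, the gene named by the genotype, fell by 1.5 on the log2 scale there and by 1.02 in cluster 4 (limma adjusted p = 0.000454 and 0.00748).

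In the endothelial-like cluster the log2 difference of Cx3cr1 was 0.45 (limma SE 0.211, adjusted p = 0.634), from 88 and 9 counts in the CCR2+/- samples and 52 and 53 in the CCR2-/- samples. The second CCR2+/- sample stood apart at a level of 0.19. Without the first CCR2+/- sample, which leaves that low sample alone on its side and assumed to vary like the other groups, the difference was 0.87 and limma's adjusted p was 6.11e-06. Without the second it was 0.04. The call therefore rested on which CCR2+/- sample was kept.

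Csrnp1, a cysteine- and serine-rich nuclear protein that acts in transcription, had levels in the microglia-like cluster of 1.78 and 1.96 in CCR2+/- and 2.24 and 2.41 in CCR2-/-. A count was found in 59.9%, 66.5%, 70.8% and 76.5% of the cells. The CCR2-/- samples were both higher, and limma gave a log2 difference of 0.21 (SE 0.0674, 95% interval 0.07 to 0.35) that missed the threshold (adjusted p = 0.237). In cluster 3 its level was 2.2, 1.83, 2.07 and 2.06, and in cluster 0 it was 1.12, 1.2, 1.63 and 1.17. Among the 5 clusters tested, the lowest Csrnp1 levels were those of the endothelial-like cluster, at 0.531, 0.633, 0.397 and 0.383. The CCR2-/- samples were both lower there (log2 difference -0.19, limma adjusted p = 0.693).

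Rpsa, a protein of the small ribosomal subunit that is also known as a laminin receptor, ordered the clusters differently from Cx3cr1. Among the 5 clusters tested, its level was highest in cluster 4 (44.5, 41.6, 44.6 and 38.4) and next in cluster 3 (27.9, 30.9, 34.1 and 29.9). In the microglia-like cluster it was 7.98, 8.33, 8.08 and 8.75, a range that takes in cluster 0 (8.41 to 8.62), with a log2 difference between genotypes of 0.04 (limma adjusted p = 0.957).

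The other neighbours were sparse. Wdr48, a cofactor of ubiquitin-specific proteases, ranged from 0.0415 to 0.393 over the samples of the 5 clusters tested. It stood at 0.202, 0.276, 0.252 and 0.171 in the microglia-like cluster. Gorasp1, a Golgi stacking protein, was at 0.153, 0.15, 0.164 and 0.142 there and at 0 in cluster 4. Slc25a38, the mitochondrial carrier that brings in glycine for haem synthesis, was at 0.113, 0.175, 0.197 and 0.145 in the microglia-like cluster and at 0.0759, 0.211, 0.374 and 0.256 in the endothelial-like cluster. The genotypes overlapped for these 3 genes in the microglia-like cluster. In other clusters both CCR2-/- samples of Wdr48 were lower in 3 and 4. Those of Gorasp1 were lower in 3, from 4, 3, 1 and 0 counts, and higher in 6. Those of Slc25a38 were lower in 0 and higher in 6. Limma called none of these where they were tested. With 2 samples per genotype, such separation, here and above, is no test, and its share over all genes was not counted.

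EGFP was almost absent from the kept brain cells, with 1 count in 1 of 3350 cells, or 0.0299% (0.000756 to 0.166). Among the 1858 brain cells that were left out, 35 carried EGFP, or 1.88% (1.32 to 2.61), and 33 of those lay in cluster 3. Which of the pooled samples those left-out cells came from was not tested. RFP, a red reporter listed in the same tables, showed the opposite placement, with a level of 0.707, 0.736, 1.27 and 0.896 over all kept cells of the brain samples and 0.00925 to 0.0297 in the blood samples.

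In the blood, among clusters with at least 20 cells per sample, Cx3cr1 was highest in the monocyte cluster of each Het sample and far lower in the same cluster of the Hom sample. This cluster raised 7 of 7 markers of Ly6c-high monocytes (Ccr2, Chil3, F13a1 and others) in each table. It also raised 8 of 8 markers of Ly6c-low monocytes in naive and 6 of 8 in metastasis-bearing blood. The naive Het sample had a Cx3cr1 level of 3.18 (2.82 to 3.57), with a count in 72% of 175 cells, and the naive Hom sample 0.426 (0.303 to 0.582), with a count in 18.7% of 182 cells. The level in Het was 7.47-fold that in Hom (5.33 to 10.7). With 1 sample per group there is no replicate check on any Het and Hom difference, and none was tested.

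The metastasis-bearing pair showed a difference of like size. Its Het monocytes had a Cx3cr1 level of 2.2 (1.97 to 2.44), with a count in 58.7% of 322 cells, and its Hom monocytes 0.277 (0.213 to 0.352), with a count in 11.4% of 482 cells. The fold was 7.95 (6.08 to 10.5). Median depth was 10772 UMIs in naive Het, 12085 in naive Hom, 13254 in metastasis-bearing Het and 14413 in metastasis-bearing Hom monocytes, so the Hom cells were the deeper ones in each pair. As the reads come from 3′ ends and the missing part of the allele was not given, a Hom level does not measure intact transcript. The naive ratio of Hom to Het was 0.134 (0.0932 to 0.187). It was 0.24 over all deposited cells and 0.304 over all cells in the authors' monocyte antibody gates.

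The Cx3cr1 level that remained in Hom monocytes was set beside that of B cells, which are not known for the receptor. B cells had 0.293 (0.224 to 0.376) in naive Het, 0.28 (0.23 to 0.338) in naive Hom, 0.256 in metastasis-bearing Het and 0.199 (0.134 to 0.286) in metastasis-bearing Hom. A count was found in 11.9%, 12.3%, 10.6% and 8.72% of these cells, whose median raw UMIs were 4677, 4865, 4257 and 4260. The intervals of Hom monocytes and Hom B cells overlapped in each table, which does not show that the levels were equal. The B cells were also less deep, and the naive Hom cells of the Ly6C-low antibody gate had a higher level, 0.667 (0.355 to 1.14).

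Ccr2, the receptor named by the brain genotypes, had ratios of Hom to Het of 1.03 (0.948 to 1.12) and 0.887 (0.844 to 0.932) in the monocyte clusters, from levels of 12.2 and 12.6 in naive and 17.7 and 15.7 in metastasis-bearing blood. RFP had 5 counts in naive Het and 0 in naive Hom monocytes. In metastasis-bearing monocytes it had 22 counts in Het, all in 1 cell, and 0 in Hom.

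**Figure D2:**
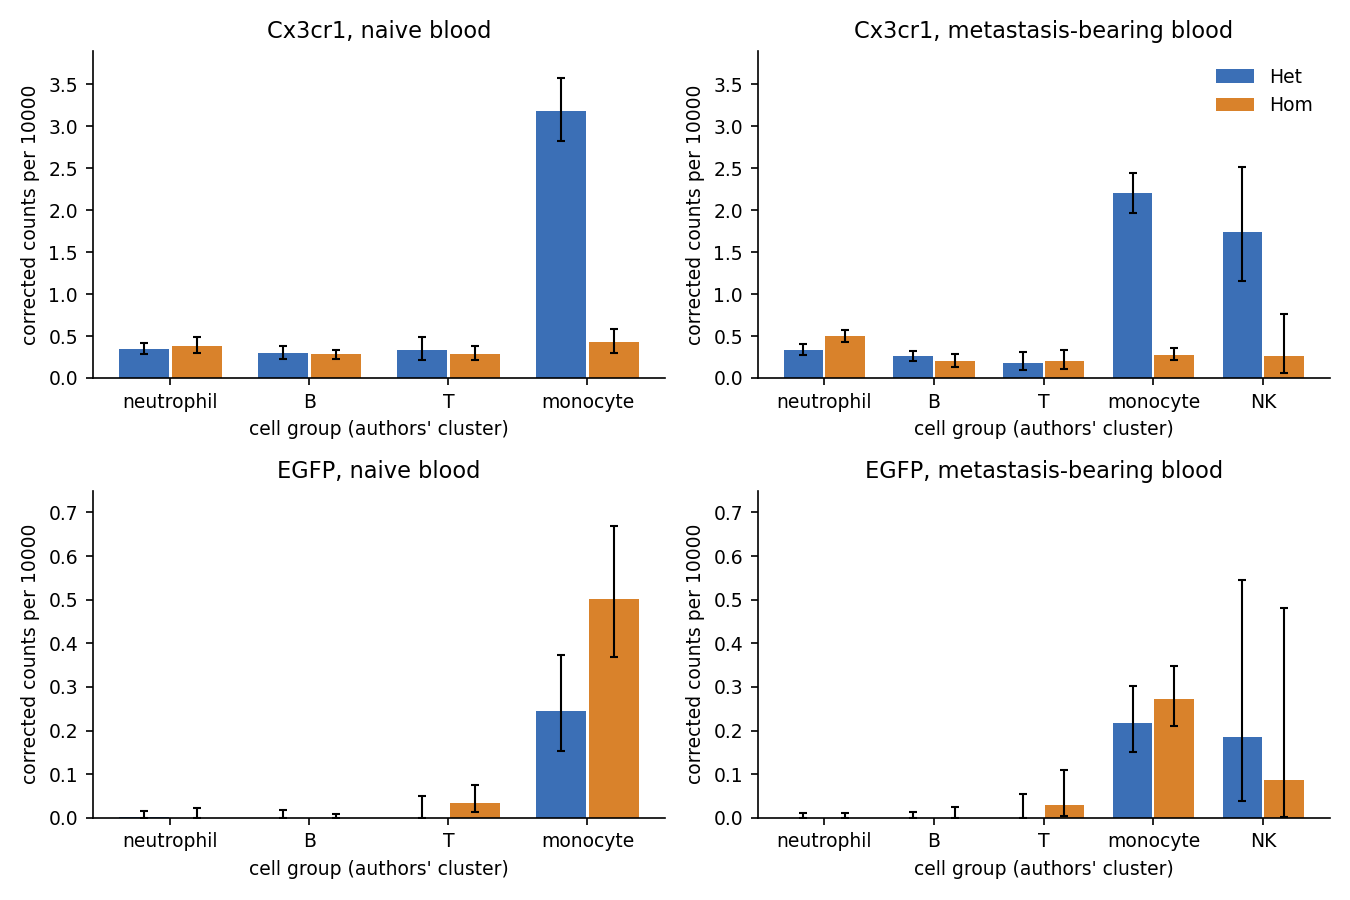
Levels of Cx3cr1 and EGFP in corrected counts per 10000 by cell group of the Het and Hom blood samples, with exact 95% Poisson intervals that cover counting error only. Cx3cr1 stands above the other groups in Het monocytes and, in metastasis-bearing blood, Het NK cells, and EGFP is highest in monocytes in all 4 samples, with wide intervals in NK cells.

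Among the other blood groups, NK cells of the metastasis-bearing pair showed the same direction, with 28 Cx3cr1 counts at a level of 1.74 in Het and 3 counts at 0.259 in Hom, a ratio of 0.149 (0.029 to 0.483). In naive blood NK cells stood inside the T cell cluster. The 9 naive Het cells of that cluster in the authors' NK antibody gate had 7 Cx3cr1 counts at 1.49, and the 39 naive Hom cells had 12 counts at 0.587. Neutrophils had Cx3cr1 levels of 0.345 and 0.383 in the naive pair (ratio 1.11) and 0.336 and 0.495 in the metastasis-bearing pair (ratio 1.47, 1.15 to 1.89), in which 1 Hom cell held 31 of the counts. T cells had 0.328 and 0.29 in the naive pair and 0.176 and 0.198 in the other. Among the 10 named groups compared, naive platelets included, 9 had at least 20 Cx3cr1 counts, and 3 were past 1.5-fold, all lower in Hom: monocytes in both tables and NK cells. Of all genes with as many counts, 17.5% were past the fold in naive monocytes, 14.6% in metastasis-bearing monocytes and 28.1% in NK cells. The low-depth cluster 4 of each table was unnamed. Ttr and mitochondrial genes led that of naive blood, and haemoglobin genes with Prg4 and Alox15 that of metastasis-bearing blood. Their Cx3cr1 levels in Het and Hom were 1.15 and 0.873 in naive and 0.854 and 0.502 in metastasis-bearing blood, ratios of 0.76 and 0.588.

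EGFP stood in the same cells. The monocyte cluster held 22 of 23 EGFP counts in naive Het (95.7%), 46 of 53 in naive Hom (86.8%), 34 of 37 in metastasis-bearing Het (91.9%) and 64 of 67 in metastasis-bearing Hom (95.5%). It held 39.9%, 8.07%, 43.8% and 14.4% of the Cx3cr1 counts of the same samples. No EGFP count was found in B cells of any blood sample.

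The EGFP level in naive monocytes was 0.246 (0.154 to 0.373) in Het and 0.502 (0.368 to 0.67) in Hom, a ratio of 2.04 (1.2 to 3.56), with a count in 10.9% and 21.4% of cells. In metastasis-bearing monocytes it was 0.217 (0.15 to 0.303) in Het and 0.272 (0.21 to 0.348) in Hom, a ratio of 1.25 (0.815 to 1.96), with a count in 9.94% and 12.4% of cells. EGFP was higher in Hom in both pairs, while Cx3cr1 was lower. The interval of the metastasis-bearing ratio spans 1, and the naive ratio fell to 1.2 (0.259 to 6.06) when each cell was thinned to 1000 corrected counts. Whether the EGFP ratios differ between the tables was not tested.

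Within monocytes, cells with EGFP were not short of Cx3cr1. In naive Het, a Cx3cr1 count was found in 17 of the 19 cells with EGFP (89.5%, 66.9 to 98.7) and in 109 of the 156 without (69.9%). In naive Hom the numbers were 8 of 39 (20.5%) and 26 of 143 (18.2%). In metastasis-bearing blood they were 21 of 32 (65.6%) and 168 of 290 (57.9%) in Het, and 7 of 60 (11.7%) and 48 of 422 (11.4%) in Hom. The cells with EGFP had the lower median depth in all 4 samples, 8965 against 11097 UMIs in naive Het.

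The monocyte clusters differed in the share of cells per antibody gate, with 52 of 322 metastasis-bearing Het cells and 387 of 482 Hom cells in the Ly6C-high gate. In other or no gate stood 79.5% of those Het and 4.15% of those Hom cells. Ly6c2 was found in 70.3% of these Het cells, so the gate shares do not show that Het held few Ly6c-high monocytes. In the same Het sample 224 of 322 cells fell in the NK1.1 gate described below. The Cx3cr1 difference stood in each gate that held over 20 counts. In the authors' Ly6C-high gate of the naive cluster, Cx3cr1 was at 2.21 in 72 Het cells and 0.332 in 101 Hom cells, a ratio of 0.15 (0.0835 to 0.255). In the Ly6C-low gate it was at 5.01 in 25 Het and 0.667 in 39 Hom cells, a ratio of 0.133 (0.0671 to 0.245). The Ly6C-low gate had the higher Cx3cr1 level in both naive samples.

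In the metastasis-bearing cluster the Ly6C-high gate had 1.78 in 52 Het and 0.26 in 387 Hom cells (0.146, 0.0956 to 0.224), and the Ly6C-low gate 1.78 in 13 Het and 0.378 in 54 Hom cells (0.213, 0.0809 to 0.551). EGFP in the Ly6C-high gate had a ratio of 3.52 (1.53 to 9.4) in naive and 1.07 in metastasis-bearing blood. In the naive Ly6C-low gate the EGFP ratio was 0.547 (0.169 to 1.73), from 8 and 7 counts, the opposite direction with an interval that spans 1.

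Markers of other cell types also differed between the Het and Hom monocyte clusters. Summed over each list, neutrophil markers had levels of 62.8 in Het and 12.2 in Hom in naive blood, with 7 of 7 lower past the fold, and 47.1 and 24.5 in metastasis-bearing blood, with 6 of 7 lower. The 6 erythroid genes summed to 0.661 and 39.7 in naive blood, where the 4 with at least 20 counts were all higher, and to 20.5 and 3.07 in metastasis-bearing blood, where the 4 were all lower. Neutrophil markers were thus lower in Hom in both pairs, and erythroid genes went opposite ways. In naive blood T markers summed to 0.415 and 1.6, with 5 of 5 higher, and type 2 dendritic markers to 1.57 and 4.96, with 4 of 5 higher. In metastasis-bearing blood T markers summed to 0.396 and 0.285, with 0 of 3 past the fold, type 2 dendritic markers to 2.33 and 1.73, with 3 of 5 lower, and B markers to 3.81 and 2.29, with 4 of 5 lower. In naive blood B markers summed to 9.18 and 8.14, with 1 of 6 lower. Microglia markers summed to 2.33 in Het and 2.91 in Hom in naive blood. Of the 4 with at least 20 counts there, 1 was higher and 1 lower, with ratios from 0.557 to 9.33. In metastasis-bearing blood they summed to 2.07 and 2.49, with 2 of 5 higher and ratios from 1.07 to 14.4. The 6 NK markers, of which none had 20 counts, stayed under 0.1 in all 4 samples. The 8 Ly6c-low monocyte markers summed to 21.6 in Het and 15.9 in Hom in naive blood, with 2 lower and 0 higher past the fold. In metastasis-bearing blood they summed to 15.2 and 12.1, with 1 lower and 1 higher. Ly6c-high monocyte markers summed to 72.7 and 86.5 in naive and to 197 and 161 in metastasis-bearing blood. The part of these marker differences in the member ratios was not tested.

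By the NK1.1 antibody, 224 of 322 monocytes of the metastasis-bearing Het sample fell in the authors' NK gate, against 1 of 482 in the Hom sample. Those 224 cells had Cx3cr1 at 2.28 (2.01 to 2.58) and Ccr2 at 18.9, and together they held 1 count of Ncr1 and 0 of Prf1. The antibody gate and the RNA markers thus went against each other in that sample.

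The fractalkine receptor's other partners did not follow Cx3cr1. In a list of 17 pathway genes, chosen with earlier results of these data known, 15 had at least 20 counts in the monocyte clusters of each table. In naive blood 0 were higher and 2 lower past 1.5-fold, and in metastasis-bearing blood 0 were. The background was 17.5% of 7365 genes past the fold in naive monocytes and 14.6% of 8291 in metastasis-bearing monocytes. The lower genes were Adam17, a protease that sheds fractalkine (ratio 0.666, 0.462 to 0.953), and Gnai3, an inhibitory G protein subunit (ratio 0.66, 0.439 to 0.982), both in naive blood. The median log2 ratio of the list was -0.11 in naive and -0.06 in metastasis-bearing blood, beside -0.0781 and -0.0578 for all genes. The ligand Cx3cl1 had 1 count in naive Het monocytes and 0 in the other 3 samples.

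Of the 5 neighbours of Cx3cr1, 4 had at least 20 counts in each table, and these stood between a ratio of 0.637 and 1.17 in naive and between 0.666 and 1.17 in metastasis-bearing monocytes. Of the 4, 1 was past 1.5-fold in naive blood (Slc25a38, lower) and 1 in metastasis-bearing blood (Csrnp1, lower), beside the background of 17.5% and 14.6%. The intervals of these past-fold ratios span 1.

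Slc25a38 was at a level of 0.291 in naive Het and 0.186 in naive Hom, from 26 and 17 counts, a ratio of 0.637 (0.324 to 1.22). In metastasis-bearing blood it was at 0.198 and 0.145, from 31 and 34 counts, a ratio of 0.731 (0.436 to 1.23). Csrnp1 was at 0.157 and 0.109 in the naive pair, from 14 and 10 counts (0.696, 0.277 to 1.68), and at 0.134 and 0.0893 in the other, from 21 counts each (0.666, 0.346 to 1.28). Both genes were lower in Hom in both pairs, with intervals that span 1. Over all deposited cells the Csrnp1 ratio was 0.436 (0.263 to 0.704) in naive and 0.554 (0.368 to 0.83) in metastasis-bearing monocytes, both intervals below 1. Over the authors' antibody gates the naive Csrnp1 ratio turned to 1.86 (0.713 to 5.68).

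Wdr48 was at 0.168 and 0.175 in the naive pair, a ratio of 1.04 (0.481 to 2.26), and at 0.198 and 0.174 in the metastasis-bearing pair, a ratio of 0.881 (0.539 to 1.45). Gorasp1 had 4 and 4 counts in the naive pair and 6 and 3 in the other, under the minimum of 20. Its metastasis-bearing ratio was 0.333 (0.0539 to 1.56) in the cluster, 0.862 (0.248 to 3.11) over all deposited cells and 0.13 (0.0258 to 0.604) over the antibody gates, the last from 9 counts. No shift of Wdr48 was detectable at this depth, and Gorasp1 was too sparse to place.

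Rpsa had enough counts for a close estimate, 2145 and 2568 in the naive pair and 4688 and 8216 in the metastasis-bearing pair. Its level was 24 in Het and 28 in Hom naive monocytes, a ratio of 1.17 (1.1 to 1.24), and 29.9 and 35 in the other pair, also 1.17 (1.13 to 1.21). Over the whole cluster it was therefore slightly higher in Hom in both pairs, the direction opposite to Cx3cr1. Other ribosomal protein genes shared this direction in naive monocytes. Of 79 with at least 200 counts there, 79 had a ratio above 1 with a median of 1.13, and 19 exceeded Rpsa. In metastasis-bearing monocytes 60 of 80 were above 1 with a median of 1.05, and 4 exceeded Rpsa. This reference set was chosen after the data were seen. Inside the Ly6C-high gate the Rpsa ratio was 1.17 (1.07 to 1.27) in naive and 1.03 (0.961 to 1.11) in metastasis-bearing monocytes. The ribosomal set in that gate had a median of 1.09 in naive monocytes, with 75 of 79 above 1 and 8 above Rpsa. In metastasis-bearing monocytes its median was 0.983, with 31 of 79 above 1 and 15 above Rpsa. Inside the Ly6C-low gate the Rpsa ratio was 1.05 (0.915 to 1.21) in naive and 0.833 (0.721 to 0.965) in metastasis-bearing monocytes, the latter lower in Hom. In monocytes of other or no gate it was 1.3 in each table. The direction of Rpsa was thus not the same in every gate.

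**Figure D3:**
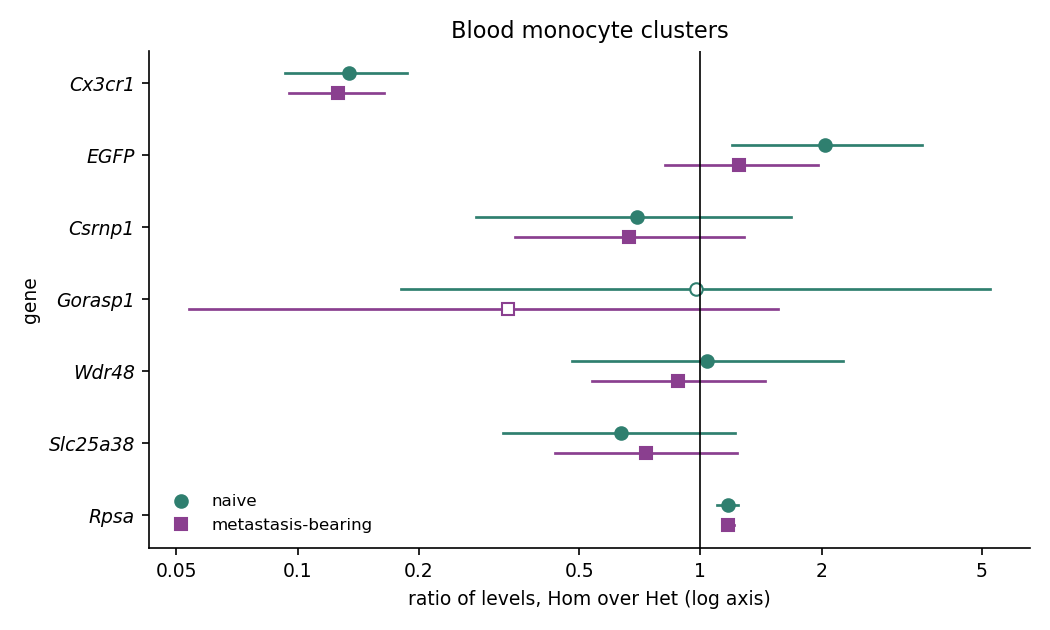
Ratio of the level in Hom to that in Het monocytes for each member on a log axis, for naive and metastasis-bearing blood, with exact 95% counting intervals; open symbols mark genes with fewer than 20 counts over both samples. Cx3cr1 stands at 0.134 and 0.126, and the intervals of Wdr48, Csrnp1 and Slc25a38 cover 1.

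The Cx3cr1 interval lay wholly below those of the 4 neighbours with enough counts. The upper bound of Cx3cr1 was 0.187 in naive blood, where the lowest neighbour bound was that of Csrnp1 at 0.277. In metastasis-bearing blood the Cx3cr1 bound was 0.164 and the lowest neighbour bound 0.346, again of Csrnp1. A shift of these 4 as large as that of Cx3cr1 was thus outside their counting intervals in either pair, for these samples.

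Over a wider stretch, 30 other protein-coding genes lie within 1 Mb of Cx3cr1, and 11 of them had at least 20 counts in the monocyte clusters of each table. In naive blood 0 were higher and 5 lower past the fold, Vill (0.572), Myd88 (0.579, 0.43 to 0.774), Ctnnb1 (0.579, 0.409 to 0.811), Oxsr1 (0.633) and Slc25a38, with a range from 0.572 to 1.17 and a median log2 ratio of -0.52. Over all genes of that cluster, 17.5% were past the fold, 850 of 7365 lower, and the median was -0.0781. In metastasis-bearing blood 0 were higher and 2 lower, Vill (0.621) and Csrnp1, with a range from 0.621 to 1.26 and a median of 0.07, beside 14.6%, 919 of 8291 lower and a median of -0.0578 over all genes. Myd88, the adaptor of Toll-like receptors, and Ctnnb1, the catenin of Wnt signalling, had ratios of 1.09 and 1.12 there. Of the 5, Vill was past the fold in both pairs, while Slc25a38 and Oxsr1 (0.761) were lower in metastasis-bearing blood as well without passing it. None reached the ratio of Cx3cr1.

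**Figure D4:**
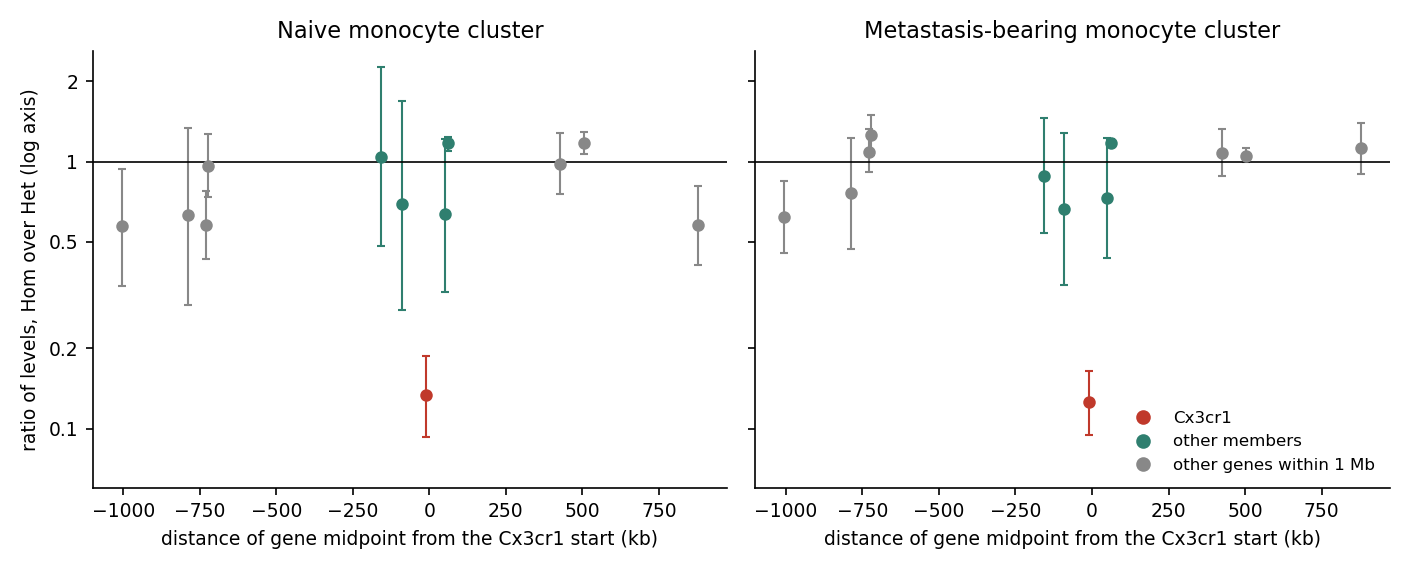
Ratio of the level in Hom to that in Het monocytes on a log axis against the distance in kb of each gene's midpoint from the Cx3cr1 start, for genes with at least 20 counts over both samples, with exact 95% counting intervals. Cx3cr1 stands alone near 0.1, and the other genes lie between 0.572 and 1.26.

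Outside monocytes, Csrnp1 and Slc25a38 stood on opposite sides of 1 in the neutrophils of the 2 tables. Csrnp1 was at 0.799 in naive Het and 0.278 in naive Hom neutrophils, a ratio of 0.348 (0.248 to 0.478), and at 0.381 and 0.51 in the metastasis-bearing pair, a ratio of 1.34 (1.06 to 1.7). Slc25a38 was at 0.172 and 0.0803 (0.466, 0.234 to 0.858) in the naive pair and at 0.15 and 0.205 (1.36, 0.934 to 2) in the other. Of all genes, 29.8% of 7373 were past the fold in naive and 15.0% of 8094 in metastasis-bearing neutrophils. Rpsa was above 1 in the neutrophils of both tables, at 1.22 (1.11 to 1.34) and 1.11 (1.02 to 1.2), as was Wdr48 at 1.15 and 1.3. Cx3cr1 in the same cells had ratios of 1.11 and 1.47.

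In B cells the background was 9.9% of 9451 genes past the fold in naive and 12.8% of 8878 in metastasis-bearing blood, and Gorasp1 in naive blood was the member past it, with 13 and 14 counts and a ratio of 0.576. In T cells, where 16.3% of 8331 and 17.1% of 6884 genes were past the fold, Wdr48 had a ratio of 1.36 (0.735 to 2.69) in naive and 0.594 (0.266 to 1.26) in metastasis-bearing blood, and Slc25a38 had 0.39 (0.125 to 1.05) in the latter. In NK cells 28.1% of 2322 genes were past the fold. Rpsa stayed within 1.5-fold in all 10 groups compared, which were neutrophils, B cells, T cells and monocytes of both tables, naive platelets and metastasis-bearing NK cells, with levels of 44.8 and 42 in naive B cells, 58.8 and 56.8 in naive T cells and 3.49 and 4.25 in naive neutrophils.

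**Figure D5:**
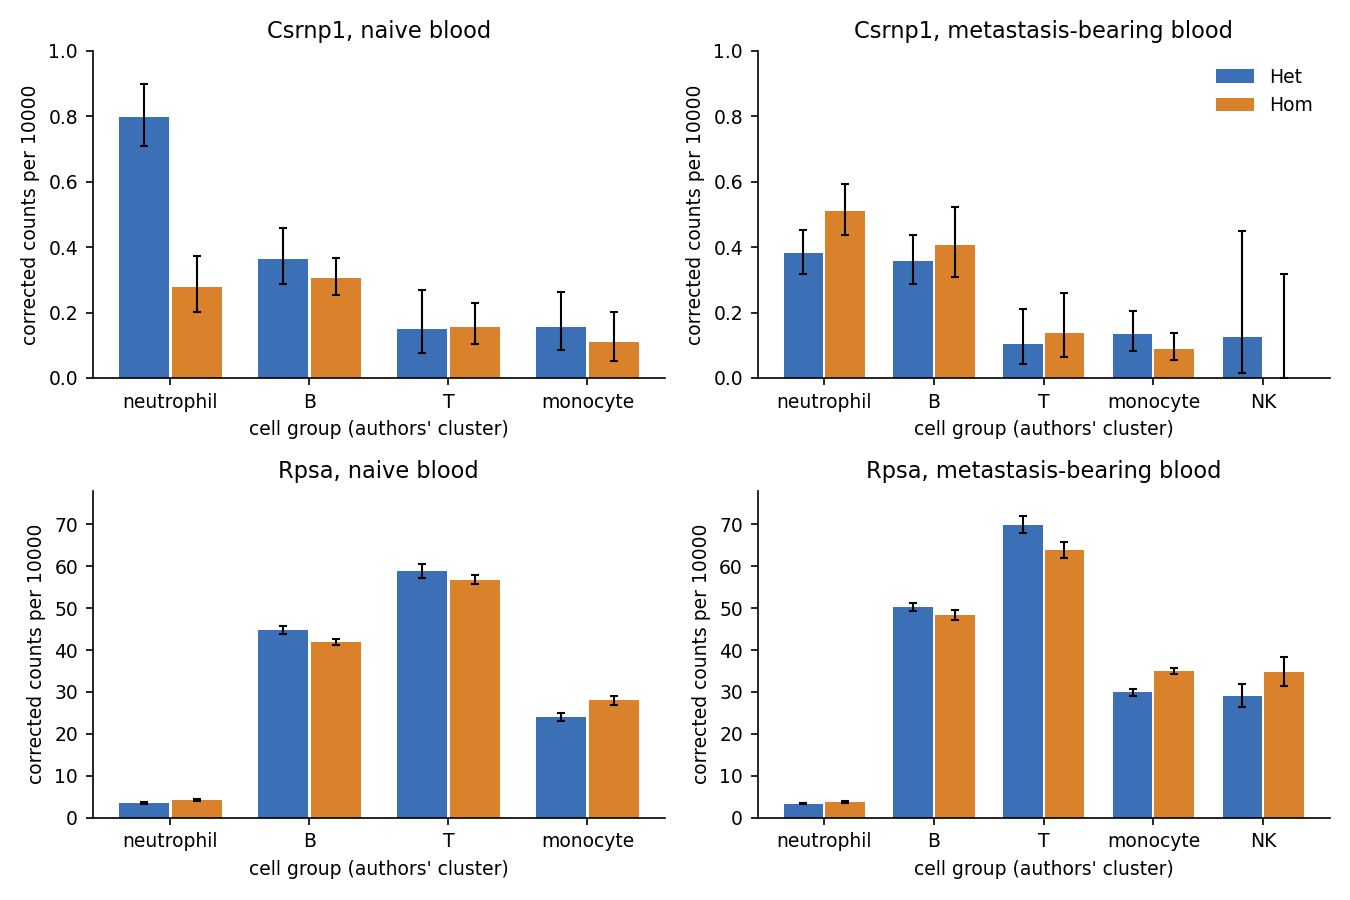
Levels of Csrnp1 and Rpsa in corrected counts per 10000 by cell group of the Het and Hom blood samples, with exact 95% Poisson intervals that cover counting error only. Csrnp1 stands at 0.799 in naive Het neutrophils against 0.278 in naive Hom, and Rpsa is highest in T cells in all 4 samples.

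Small clusters with microglia markers also stood in the blood tables. These microglia-like clusters held 7 kept cells in each blood sample, with Cx3cr1 at 46.1 in naive Het, 36 in naive Hom, 37.7 in metastasis-bearing Het and 35.6 in metastasis-bearing Hom, and EGFP at 0 in all 4. Het was above Hom in each table, with counting intervals that overlapped in naive blood (39.4 to 53.7 and 30.2 to 42.7) and in metastasis-bearing blood (31.6 to 44.5 and 29.7 to 42.3), and the difference was not tested. How these cells came to carry a blood hashtag was not tested.

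The genes whose levels followed Cx3cr1 most closely over the brain clusters were Sirpa (Pearson r = 0.992 on the log2(level + 1) scale over 20 cluster and sample points), Scamp2 (0.991), Csf1r (0.987) and Vsir (0.985), among 6490 genes. Over the 13 clusters of the Het blood samples they were Daglb (0.910), Tor1b (0.907), Usp12 (0.904), Rap2a (0.899) and Rrbp1 (0.892), among 5544 genes. All points came from 1 pooled library, and points of 1 table share its normalization. The brain points were 5 clusters in each of 4 samples. Those of blood pooled naive and metastasis-bearing clusters, which were normalized separately, so these levels were not compared within a table. Only genes reaching a level of 0.5 were ranked, which left out Wdr48, Gorasp1 and Slc25a38, so nothing follows for them. Csrnp1 and Rpsa were ranked and were not among the closest genes. Csrnp1 stood at 0.65 in brain and -0.07 in blood, and Rpsa at -0.52 and 0.00.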

How the data were processed

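RNA of 8 hashed mouse samples was measured in 1 pooled library. The submitters' processing notes name Cell Ranger 3.1 and the build mm10, and the version and settings of later steps were not given in the sources used here. The deposited values are natural log (ln) values, which the authors made as ln of 1 plus a depth-corrected count, separately for each of the 3 tables; back-transformed, they were whole numbers to within 2.18e-11. Raw UMI and hashtag counts per cell, the authors' cluster numbers and their antibody gates came from the deposited cell descriptions; values of single antibodies were not used here.

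The clear cells numbered 3350 of 5208 in brain, 3694 of 5363 in naive and 4019 of 5757 in metastasis-bearing blood. Corrected counts were summed per sample and authors' cluster, to totals of 4420428 to 9267629 per sample. Clusters were called a cell type, or "-like", by its markers. At least 3 had to be raised 2-fold, and more than for any other type had to stand among the 10 top genes. Others stayed unnamed. Brain cluster 3 met the rule for border macrophages, with 5 of 7 markers raised, but was led by MHC class II genes. Brain cluster 4 and cluster 4 of metastasis-bearing blood met it for erythroid cells. All of these were left unnamed by hand. Brain genotypes were compared with limma 3.58.1 (R 4.3.3, mean-variance trend, log2(level + 1), genes with at least 20 corrected counts, clusters with at least 20 cells per sample, Benjamini-Hochberg over all genes of a cluster, threshold 0.05). Since the deposited values are ln values, no count model was fitted. The limma fit was run on simulated data with planted changes larger than any seen in the members. That run does not bear on differences as small as theirs. Blood groups had 1 sample each, so ratios carry exact conditional binomial intervals, levels exact Poisson and shares Clopper-Pearson intervals. The plain ratio was added after the data were seen, because a pseudocount of 1 flattens low genes. Past the fold means a ratio of at least 1.5 either way with at least 20 counts over both samples.

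Named genes were the 7 members, genes within 1 Mb, the pathway list, the 5 genes most correlated with Cx3cr1 in brain and in Het blood clusters among genes reaching a level of 0.5, and Ccr2 and RFP for reference. Of the genes within 1 Mb, those past the fold are named. Of the genes most correlated in brain, 1 is not reported here. The members and lists were chosen with earlier results of these data known. Python steps used numpy 2.4.6, pandas 2.3.3, scipy 1.17.1 and matplotlib 3.10.9. Alternatives were all deposited cells, a hashtag share of 0.8, means per cell, thinning to 1000 corrected counts, a pseudocount of 0.1, no filter on low values, antibody gates and leaving out each brain sample.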

Additional observations from a re-analysis of the deposited data

Results flagged for a closer look

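Some neighbour results moved in opposite directions between Hom and Het in the 2 blood tables, and none of these differences was tested, since each group was 1 sample. In neutrophils, the Hom to Het ratio of Csrnp1 was 0.348 (0.248 to 0.478) in naive and 1.34 (1.06 to 1.7) in metastasis-bearing blood. Slc25a38 in neutrophils had 0.466 in naive and 1.36 in metastasis-bearing blood. Wdr48 in T cells had 1.36 in naive and 0.594 in metastasis-bearing blood, from 14 and 45 counts and from 21 and 12, and both of its intervals span 1. The intervals cover counting error only.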

How the results depend on the processing

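The main log2 difference of Cx3cr1 in monocytes (pseudocount 1, Hom over Het) was -1.55 in naive and -1.32 in metastasis-bearing blood, and it stayed negative under every alternative run. In naive blood it was -1.14 with all deposited cells, -1.78 after thinning to 1000 corrected counts, -2.64 with a pseudocount of 0.1, -1.09 by antibody gates and -1.27 in the Ly6C-high gate within the cluster. In metastasis-bearing blood it was -1.22 with all deposited cells, -2.61 with a pseudocount of 0.1, -1.02 by antibody gates and -1.14 in the Ly6C-high gate. The EGFP difference, 0.27 in naive blood, was 0.05 after thinning and 0.80 with a pseudocount of 0.1, and that of metastasis-bearing blood, 0.06, was 0.23 with a pseudocount of 0.1. The count of neighbours past 1.5-fold, 1 in each table, was 0 after thinning in each table (1 gene then had 20 counts), 3 by antibody gates in naive blood and 0 by the mean per cell in metastasis-bearing blood. Which neighbour passed also changed. It was Csrnp1 in naive blood with all deposited cells and Slc25a38 in the metastasis-bearing Ly6C-high gate. The 3 by naive antibody gates were Wdr48 (0.587) and Slc25a38 (0.499), both lower, and Csrnp1 (1.86), higher. Slc25a38 in naive monocytes reversed after thinning, to a ratio of 3.37 over 9 counts.

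Leaving out each brain sample in turn, no member was called in clusters 0, 1, 3 and 4 (0 to 0), and 0 to 1 in the endothelial-like cluster, where the call came without CCR2+/- replicate 1. The log2 difference of Cx3cr1 ran from -0.17 to 0.11 in cluster 0, from -0.07 to 0.08 in the microglia-like cluster, from -0.44 to -0.13 in cluster 3, from -0.26 to 0.39 in cluster 4 and from 0.04 to 0.87 in the endothelial-like cluster. In the microglia-like cluster that of Csrnp1 ran from 0.17 to 0.26 and that of Rpsa from -0.01 to 0.09, and Rpsa was -0.10 after thinning. Every other alternative kept the count of members called at 0. The causes were not tested. No paired analysis was possible because no label ties a CCR2+/- sample to a CCR2-/- sample. Depth limits the sparse neighbours most: Gorasp1 had under 20 counts in monocytes of each table, with a metastasis-bearing ratio from 0.13 to 0.862, and Csrnp1 and Slc25a38 had 24 to 65 over both samples.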
